A study of Rattus norvegicus with 16 samples.

Results

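Glomeruli of rats injured with puromycin aminonucleoside (PAN) and treated with GQ-16 were compared with glomeruli of injured rats that received no drug. PAN is a toxin that damages podocytes and causes heavy protein loss in urine, and GQ-16 is a partial agonist of the nuclear receptor PPARγ. The comparison took every library that the labels place in the PAN and GQ-16 group (4 rats) and in the PAN group (4 rats), which is 8 of the 16 libraries of the series, and all 13222 genes of the deposited table. Both groups were male Wistar rats of about 175 g with an intravenous dose of PAN, gavaged each day with GQ-16 or, per the labels' protocol, a sham vehicle, with glomeruli isolated by sieving on day 11 and profiled by stranded poly(A) RNA sequencing. The other 8 libraries came from 4 healthy control rats and from 4 rats given PAN and pioglitazone, a thiazolidinedione PPARγ agonist in clinical use. The labels give no drug dose, litter or batch. They give the group and number of each library but nothing further on how samples were drawn from animals, so the p-values measure the spread between these samples.

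A glomerulus is a tuft of capillaries held together by contractile mesangial cells and wrapped by podocytes, whose interlocking foot processes and slit diaphragms filter the blood across a basement membrane of collagen IV and laminin. Injured podocytes and activated mesangial cells are known to take up filament, contractile and matrix proteins such as desmin, smooth muscle actin and fibrillar collagens, and PAN damage is known to engage the p53 pathway, in which p21 (Cdkn1a) stops the cell cycle. PPARγ acts with its partner RXR on response elements near genes of lipid handling, and its agonists are known to lower proteinuria in this model.

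Levels are given as median-scaled CPM, that is, read levels normalised for library size and then set to a common library median over all genes, and changes as log2 differences, GQ-16 minus PAN. Transcript length is not part of this unit, so levels are not compared between genes. Library totals ran from 13351137 to 19053825 reads with GQ-16 and from 15169168 to 18880622 with PAN (exact permutation p 0.4, two-sided, where 4 against 4 rats cannot go below 0.0286). Mitochondrial genes (21 in the table) took 18.4%, 31.4%, 9.14% and 6.76% in the GQ-16 rats and 5.98%, 9.87%, 10.8% and 10.3% of all reads in the PAN rats (exact permutation p 0.343). PAN rat 1 had the highest interstitial matrix and leukocyte genes of the PAN rats, at 0.97 and 0.99 above the PAN mean on the log2 scale (median over each list). Proximal tubule genes spread to both sides among the PAN rats, at -1.05, -0.10, 0.08 and 1.09. GQ-16 rat 2 had the highest mitochondrial share and the lowest podocyte list median, and GQ-16 rat 4 had the lowest level of cell cycle genes, so several lists are also given without them. Library numbers were unequal between the groups: 3 of 4 GQ-16 rats had numbers of 15 or lower and 3 of 4 PAN rats had numbers of 25 or higher, and what the numbers stand for is not stated in the labels.

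The tissue label was checked against markers. All 30 listed podocyte genes were in the table, their summed level ran from 13807 to 37198 CPM with GQ-16 and from 20307 to 27346 CPM with PAN, and none had 0 reads in any of these libraries. Proximal tubule genes were also present in every library, with a summed level over 22 genes of 8079 to 15610 CPM with GQ-16 and 4518 to 20680 CPM with PAN. In sieved tissue, fewer cells of a type and less RNA per cell cannot be told apart.

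No gene passed a limma adjusted p under 0.05 between GQ-16 and PAN (0 of 13222, 0%), and voom, a second form of the test on the recovered reads, also called 0. The smallest adjusted p was 0.0962, that of Cdkn1a. At an unadjusted p under 0.05 there were 857 genes (6.48% of all), 504 lower with GQ-16 (3.81%) and 353 higher (2.67%). The 8 rats did not overlap for 206 genes that were lower in every GQ-16 rat (1.56% of all) and for 229 that were higher in every one (1.73%). Below, lower and higher describe measured values, and each list of genes is set against these background shares. The median gene had a log2 change of 0.02, 105 genes were more than 2-fold lower and 38 more than 2-fold higher, and the middle gene's 95% interval spanned 0.32 to each side, a factor of 1.24.

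**Figure D1:**
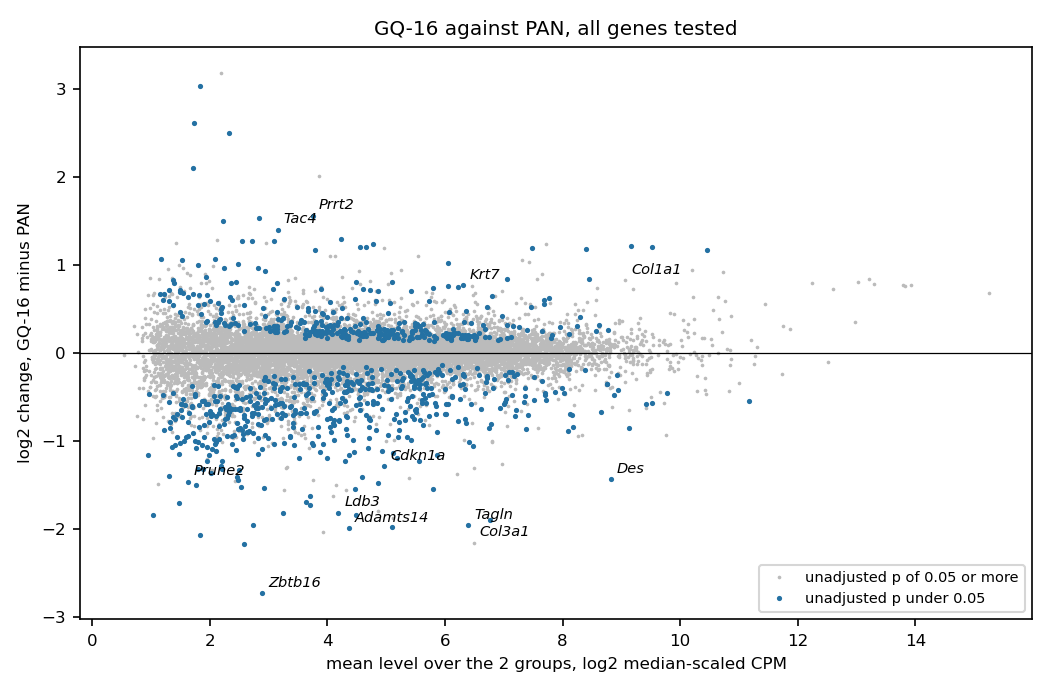
Log2 change with GQ-16 against PAN (vertical axis) by mean level of the 2 groups (horizontal axis, log2 median-scaled CPM) for all 13222 genes, with genes at an unadjusted p under 0.05 in blue. Genes more than 2-fold lower (105) outnumber genes more than 2-fold higher (38), and no gene passed the adjusted threshold.

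The gene with the smallest p was Cdkn1a (ENSRNOG00000000521), which encodes p21, the inhibitor of cyclin-dependent kinases that p53 induces. Its level was 15.2, 20.03, 20.4 and 15.9 CPM in the 4 GQ-16 rats and 42.02, 63.1, 35.7 and 37.3 CPM in the 4 PAN rats. Every GQ-16 rat was below every PAN rat, and the GQ-16 rats lay close to each other and near the healthy rats, whose mean was 13.4 ± 2.78 CPM (SD, n = 4). The log2 change was -1.29 (SE 0.19, unadjusted p 7.28e-06, adjusted p 0.0962 by limma), with a 95% interval of -1.697 to -0.88, so PAN rats had 2.44 times the GQ-16 level. Cdkn1a rose with PAN injury, by 1.71 over control (adjusted p 0.000357 by limma). When the deposited library totals were used without setting the medians equal, Cdkn1a (log2 -1.43, limma adjusted p 0.025) and Prune2 (log2 -1.60, limma adjusted p 0.0308) were the 2 genes that passed the adjusted threshold.

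The promoters of Cdkn1a and Ccng1, 2 classical p53 targets of the list below, are shown because each holds a p53 half-site, a short pattern with purines at its start, pyrimidines at its end and C and G between them, to which p53 binds. The 250 bases before the RefSeq start are printed 5′ to 3′ on the gene's own strand, in build GRCr8, with the half-site in capitals. Cdkn1a lies at chr20:7150682-7150931 on the plus strand and its half-site spans 201 to 192 bases before the start. Ccng1 lies at chr10:25684877-25685126 on the minus strand and its half-site spans 232 to 223 bases before the start.
Cdkn1a promoter: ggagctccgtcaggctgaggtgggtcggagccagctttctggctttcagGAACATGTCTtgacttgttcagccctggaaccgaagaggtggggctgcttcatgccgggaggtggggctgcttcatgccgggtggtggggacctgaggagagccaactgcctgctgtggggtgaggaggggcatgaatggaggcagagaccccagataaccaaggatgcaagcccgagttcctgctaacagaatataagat
Ccng1 promoter: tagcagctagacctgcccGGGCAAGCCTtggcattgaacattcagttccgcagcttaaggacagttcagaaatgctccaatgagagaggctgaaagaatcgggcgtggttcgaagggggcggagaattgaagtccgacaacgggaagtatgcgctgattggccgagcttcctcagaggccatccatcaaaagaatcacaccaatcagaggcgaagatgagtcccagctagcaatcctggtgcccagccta
Both strands were searched, and 6.64% of all 33469 RefSeq promoters of this length hold such a match, so a match describes the letters only. Both promoters were chosen for their match, and those of the p53 targets Mdm2, Phlda3 and Plk2 hold none. Of the 72 genes named here that have a RefSeq promoter, 7 hold a p53 half-site.

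Tp53inp1, a stress-induced p53 cofactor, likewise had every GQ-16 rat below every PAN rat, at a smaller difference. Its level was 7.12, 6.91, 9.19 and 7.17 CPM with GQ-16 and 10.5, 11.5, 10.4 and 12.6 CPM with PAN, with GQ-16 rat 3 the highest of its group. Its log2 change was -0.57 (SE 0.11, unadjusted p 9.4e-05, adjusted p 0.217 by limma), and its level rose with PAN injury by 0.54 over control (adjusted p 0.00802 by limma). Phlda3, a p53 target that restrains Akt signalling, was at 18.4, 26.5, 34.2 and 32.4 CPM with GQ-16 and 74.3, 58.8, 40.3 and 43.9 CPM with PAN, a log2 change of -0.96 (SE 0.23, unadjusted p 0.000737, adjusted p 0.358 by limma). All 4 GQ-16 rats were below all 4 PAN rats for Phlda3, and PAN rat 1 was the highest of the 8.

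Ccng1, the p53-induced cyclin G1, was at 111, 78.1, 123 and 116 CPM with GQ-16 and 125, 145, 137 and 212 CPM with PAN, again without overlap, with a log2 change of -0.52 (SE 0.21, adjusted p 0.712 by limma). Plk2, a stress-responsive kinase that p53 can induce, went the other way, at 82.5, 78.1, 74.1 and 98.3 CPM with GQ-16 and 51.4, 51.9, 62.2 and 34.8 CPM with PAN, a log2 change of 0.76 (SE 0.23, adjusted p 0.605 by limma), and all 4 GQ-16 rats were above all 4 PAN rats. Mdm2, the ubiquitin ligase that removes p53 and is itself a p53 target, was nearly level at -0.08 (95% interval -0.24 to 0.09), with overlapping rats. Of the 21 genes in the p53 and arrest list, 6 were lower and 1 was higher at an unadjusted p under 0.05 (background 3.81% and 2.67%). Without overlap 4 were lower and 1 was higher (background 1.56% and 1.73%), and none passed the adjusted threshold. The median change of the list was -0.08, against 0.02 for all genes. With each rat left out, the median was -0.18 to -0.06 and 4 to 6 genes were lower at an unadjusted p under 0.05.

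Genes of contractile mesangial and smooth muscle cells had a low median, close to that of the interstitial matrix list. All 17 contractile genes in the table, of 19 listed, had a lower mean with GQ-16 (45.6% of all genes did), and the median change was -0.67. At an unadjusted p under 0.05, 8 genes were lower and 0 higher (background 3.81% and 2.67%). The groups did not overlap for 4 of them (background 1.56%). None passed the adjusted threshold. The rats' own medians over the list, as log2 distances from the PAN mean, were -1.04, -0.58, -0.44 and -0.42 with GQ-16 and 0.39, 0.17, -0.22 and -0.21 with PAN, so the groups did not overlap. The summed level ran from 1656 to 2637 CPM with GQ-16, 2796 to 4205 CPM with PAN and 1169 to 1747 CPM in healthy rats. In PAN against control 12 genes of the list were higher at an adjusted p under 0.05 and 0 were lower (background 6.36% higher and 1.78% lower).

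Tagln encodes transgelin, an actin-binding protein of smooth muscle. Its level was 20.05, 23.4, 34.1 and 38.8 CPM with GQ-16 and 329, 87.5, 61.1 and 80.1 CPM with PAN, and no GQ-16 rat reached the lowest PAN rat. The log2 change was -1.96 (SE 0.43, unadjusted p 0.000442, adjusted p 0.358 by limma), and it ranged from -2.23 to -1.43 when each rat was left out in turn, with the smallest size without PAN rat 1. Des encodes desmin, the muscle intermediate filament used as a marker of podocyte injury in this model. Des was at 191, 178, 257 and 371 CPM with GQ-16 and 825, 687, 508 and 599 CPM with PAN, without overlap, a log2 change of -1.43 (SE 0.34, unadjusted p 0.000837, adjusted p 0.358 by limma), while healthy rats had 91.4 ± 43.2 CPM (SD, n = 4).

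Acta2, smooth muscle α-actin, was at 15.8, 26.3, 21.2 and 43.9 CPM with GQ-16 and 134, 58.5, 46.5 and 32.5 CPM with PAN, a log2 change of -1.24 (SE 0.37, unadjusted p 0.00431, adjusted p 0.59 by limma). The groups overlapped for Acta2, because GQ-16 rat 4 was above PAN rat 4. Serpine2, the protease inhibitor nexin-1, did not overlap, at 23.9, 35.4, 32.7 and 38.4 CPM against 70.6, 62.5, 39.05 and 45.7 CPM, a log2 change of -0.72 (SE 0.21). Notch3, the receptor of vascular mural cells, was lower in all 4 GQ-16 rats at -0.53 (SE 0.20, adjusted p 0.66 by limma). Pdgfrb, the PDGF receptor of mesangial cells and pericytes, was at 233, 333, 325 and 330.2 CPM with GQ-16 and 669, 582, 421 and 329.6 CPM with PAN, a log2 change of -0.67, with GQ-16 rat 1 the lowest and PAN rat 4 level with 3 GQ-16 rats. It is named after its values were seen.

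**Figure D2:**
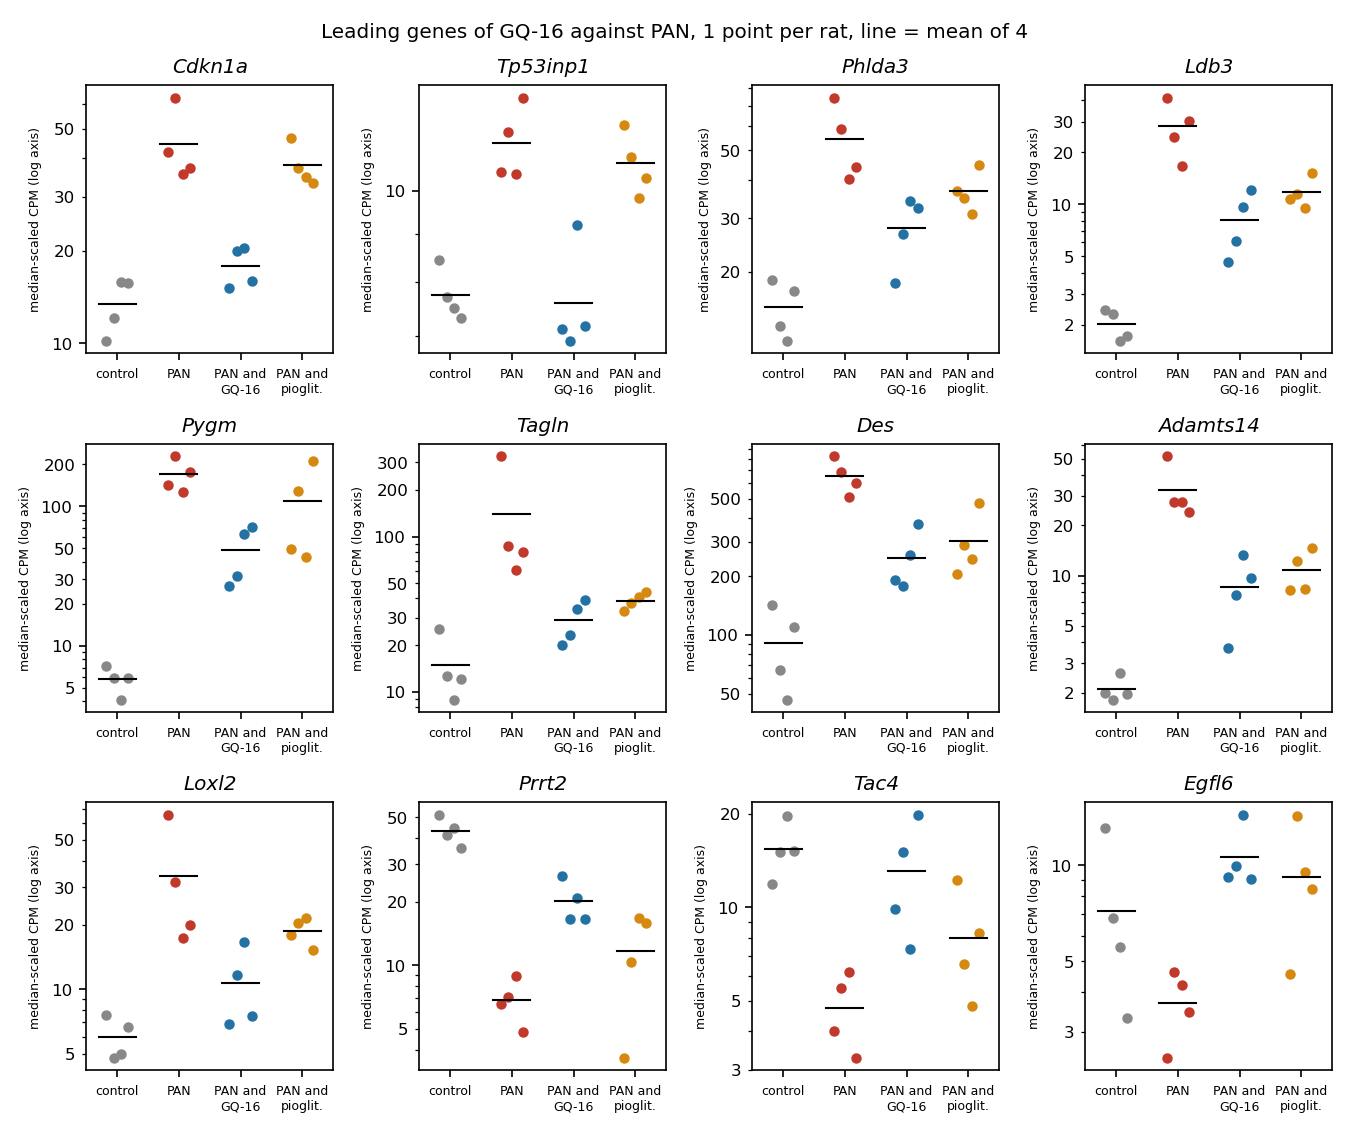
Level of 12 genes in each rat (vertical axes, median-scaled CPM on log scales) in the 4 groups, with a black line at the group mean. The 12 genes were picked from those without overlap, so the 4 GQ-16 rats lie apart from the 4 PAN rats in each panel by choice. They lie below the PAN rats for 9 genes and above them for 3, which does not measure direction over all genes. Over all genes, 206 (1.56%) were lower and 229 (1.73%) higher without overlap.

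Interstitial matrix genes, which build and cross-link fibrillar collagen and elastic fibres, had a median change of -0.66 over 21 genes, with 19 lower. At an unadjusted p under 0.05 there were 10 lower and 0 higher (background 3.81% and 2.67%), and 4 were lower without overlap (background 1.56%). None passed the adjusted threshold. The rats' medians were -1.04, -0.65, -0.40 and -0.57 with GQ-16 and 0.97, -0.03, -0.42 and -0.54 with PAN, so 2 PAN rats lay among the GQ-16 rats and PAN rat 1 lay far above the rest. With each rat left out, the median was -0.82 to -0.43 and 5 to 13 genes were lower at an unadjusted p under 0.05. Without PAN rat 1 the median was -0.43, with 5 genes lower and 2 higher at an unadjusted p under 0.05, and without GQ-16 rat 1 it was -0.56 with 5 lower and 0 higher. With a library number of 25 or higher as a covariate it was -0.55 with 4 lower and 1 higher (4.75% and 5.30% of all genes in that fit).

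Adamts14, a protease that trims the amino-terminal propeptide of fibrillar procollagens, is outside the list and had the smallest p of the matrix genes named. Its level was 3.705, 7.62, 13.4 and 9.68 CPM with GQ-16 and 51.7, 27.4, 27.4 and 23.9 CPM with PAN, without overlap. The log2 change was -1.997 (SE 0.34, unadjusted p 3.48e-05, adjusted p 0.115 by limma), so PAN rats had 3.99 times the GQ-16 level, and Adamts14 had risen by 3.902 with injury (adjusted p 4.69e-05 by limma). The change ranged from -2.26 to -1.64 when each rat was left out.

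Loxl2, a lysyl oxidase that cross-links collagen, was at 6.86, 11.7, 16.6 and 7.505 CPM with GQ-16 and 65.6, 31.9, 17.4 and 20.1 CPM with PAN, a log2 change of -1.55 (SE 0.36, unadjusted p 0.000692, adjusted p 0.358 by limma). The groups did not overlap, yet GQ-16 rat 3 and PAN rat 3 were close to each other. Fbn1, fibrillin-1 of elastic microfibrils, was at 39.02, 60.7, 68.9 and 48.2 CPM and 197, 116, 78.2 and 74.1 CPM, a log2 change of -1.02 (SE 0.27), without overlap and with PAN rat 1 the highest. Col12a1, a collagen that decorates fibrils, was at 124, 231, 276 and 216 CPM and 463, 395, 293 and 328 CPM, a log2 change of -0.84 (SE 0.23), also without overlap. Hmcn1, the large basement membrane linker hemicentin-1, was lower in all 4 GQ-16 rats at 14.2, 21.3, 32.4 and 21.8 CPM against 57.8, 55.7, 36.3 and 49.98 CPM, a log2 change of -1.19 (SE 0.23, unadjusted p 0.00012, adjusted p 0.226 by limma). Vcan, the proteoglycan versican, was at -0.66 (SE 0.24) without overlap and is named after its values were seen, and Fbln5, the elastic fibre organiser fibulin-5, was at -0.64 (SE 0.22) with overlapping rats.

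The collagen I and III chains varied widely between rats. Col1a1, the main chain of collagen I, was at 455, 199.8, 816 and 754 CPM with GQ-16 and 1544, 243, 185 and 80.97 CPM with PAN, a log2 change of 0.83 (95% interval -0.76 to 2.42), and 3 of the 4 GQ-16 rats were above 3 of the 4 PAN rats. Without PAN rat 1 the change of Col1a1 was 1.66 and without PAN rat 4 it was 0.24. Col3a1, the chain of collagen III, was at 3.86, 3.21, 2.34 and 14.7 CPM with GQ-16 and 672, 12.6, 6.29 and 3.21 CPM with PAN. Its log2 change of -2.16 (95% interval -4.72 to 0.40) was -0.48 without PAN rat 1. Fn1, fibronectin, was at 302, 259.9, 399 and 395 CPM and 1061, 607, 141 and 412 CPM, a log2 change of -0.40 (95% interval -1.298 to 0.50), and without PAN rat 1 the change was 0.02.

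Matricellular proteins and matrix proteases had a median change of -0.38 over 20 genes, 17 of them lower. At an unadjusted p under 0.05, 3 were lower and 1 was higher (background 3.81% and 2.67%). The median was -0.51 to -0.14 with each rat left out, nearest 0 without GQ-16 rat 2, with 3 to 6 lower and 0 to 2 higher. Ccn1, a matrix-bound target of mechanical signalling, was lower in all 4 GQ-16 rats at -0.76 (SE 0.27), and Mmp2, gelatinase A, was at -0.67 (SE 0.23) with overlap. Mmp9, gelatinase B, was higher, at 510.5, 461, 431 and 341 CPM against 262, 394, 257 and 129 CPM, a log2 change of 0.83 (SE 0.33, unadjusted p 0.0232, adjusted p 0.708 by limma), and GQ-16 rat 4 overlapped with PAN rat 2.

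Basement membrane genes had a median of -0.08 over 19 genes and 2 lower at an unadjusted p under 0.05 (background 3.81%). These were Nid1, the laminin and collagen IV linker nidogen-1, at -0.70 (SE 0.25) and Col4a1, an α chain of collagen IV, at -0.55 (SE 0.22), both with overlapping rats. The count of lower genes was 0 to 4 with each rat left out, with 0 without GQ-16 rat 1 and 4 without PAN rat 3, GQ-16 rat 2 or GQ-16 rat 3. Col4a2, the partner chain, was at -0.43 (SE 0.21). Among 27 ligands, receptors and inhibitors of TGF-β and BMP signalling the median was -0.02, and the ligand Tgfb3 was the one gene with an unadjusted p under 0.05. Tgfb3 was at 8.12, 14.7, 11.2 and 18.3 CPM with GQ-16 and 33.9, 30.8, 26.6 and 22.2 CPM with PAN, without overlap, a log2 change of -1.16 (SE 0.29, unadjusted p 0.00109, adjusted p 0.414 by limma). Tgfb1, the ligand most studied in glomerular scarring, had overlapping rats and a log2 change of -0.21 (95% interval -0.48 to 0.06).

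**Figure D3:**
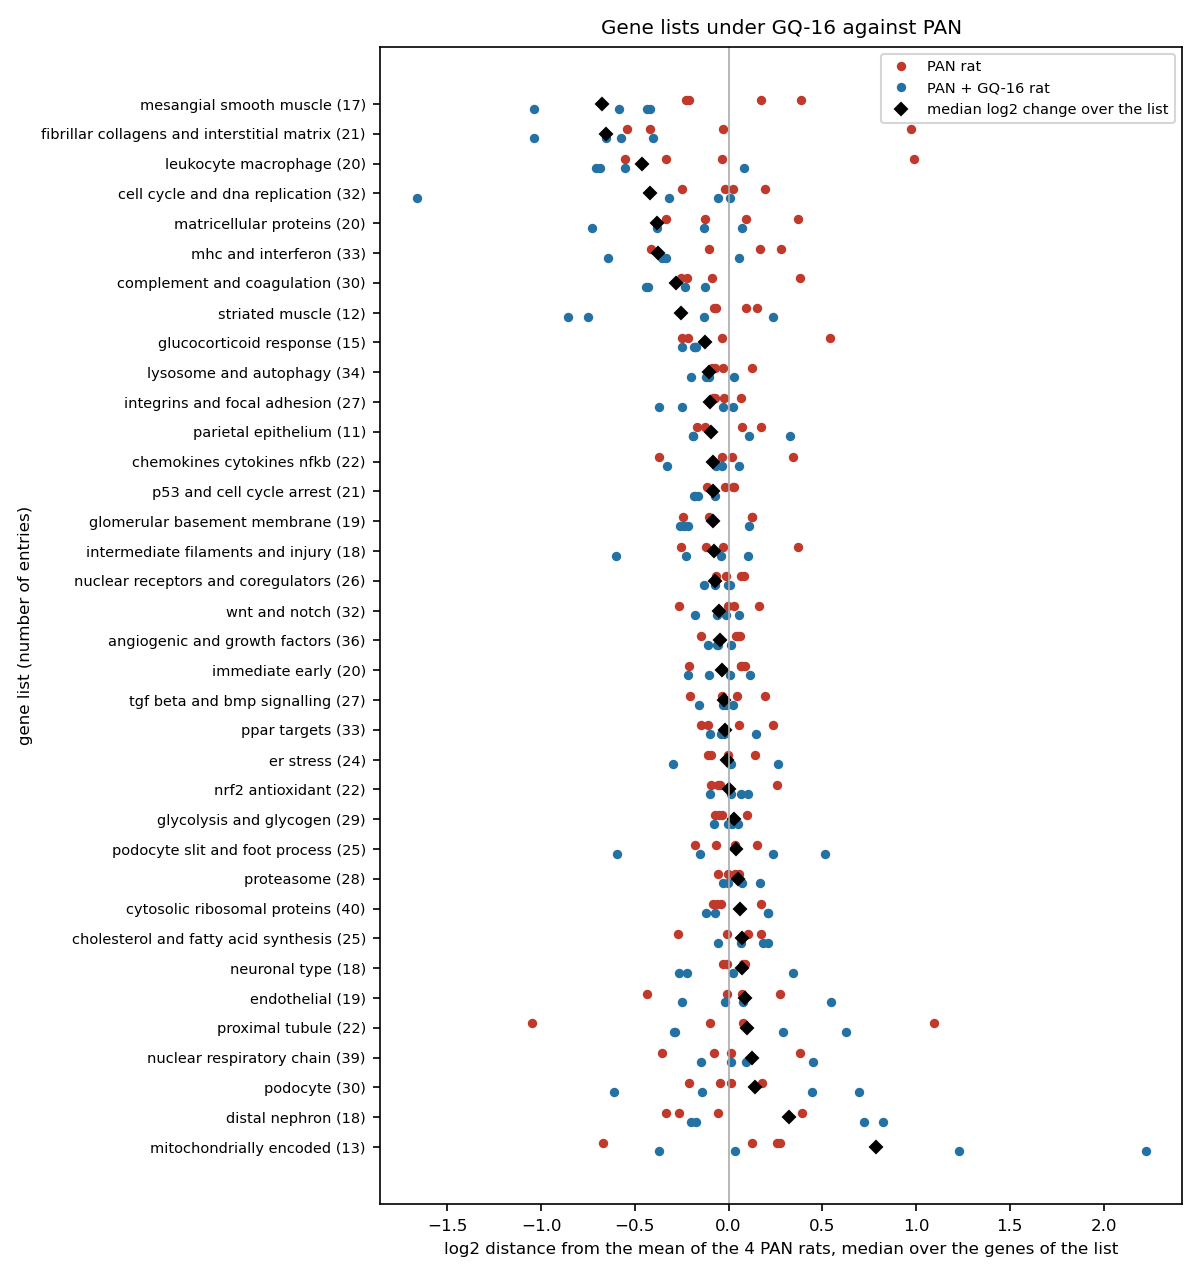
Median log2 distance from the PAN mean over the genes of each of 36 lists (horizontal axis), for each PAN rat (red) and each GQ-16 rat (blue), with the median log2 change of the list as a black diamond. The contractile mesangial list has a median of -0.67 and no overlap between the groups, and the mitochondrially encoded list has a median of 0.79, which is 0.31 without GQ-16 rat 2 and 0.10 after quantile normalization.

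Of 39 listed sarcomere and muscle genes 12 were in the table, which leaves out genes low in most libraries. Of these 12, 3 were lower with GQ-16 at an unadjusted p under 0.05 (background 3.81%), with 0 higher. The groups did not overlap for these 3, which were Ldb3, Pygm and Des (background 1.56%). The median over the list was -0.25 and 9 of 12 were lower. It was -0.46 with 5 lower at an unadjusted p under 0.05 without GQ-16 rat 4, and -1.16 over the 8 genes with a mean of at least 10 CPM. Ldb3 (ENSRNOG00000059166), the Z-disc protein that anchors α-actinin, was at 4.598, 6.12, 9.64 and 12.1 CPM with GQ-16 and 41.4, 24.6, 16.5 and 30.2 CPM with PAN, without overlap. Its log2 change was -1.82 (SE 0.31, unadjusted p 3.02e-05, adjusted p 0.115 by limma), and it had risen by 3.75 over control (adjusted p 4.69e-05 by limma).
The promoter of Ldb3 is shown because it holds a CArG box, the A- and T-rich pattern between C and G ends that is bound by serum response factor, a regulator of contractile genes. The 250 bases before the RefSeq start lie at chr16:9924680-9924929 on the minus strand of GRCr8, and the capitals mark the box, 52 to 43 bases before the start.
Ldb3 promoter: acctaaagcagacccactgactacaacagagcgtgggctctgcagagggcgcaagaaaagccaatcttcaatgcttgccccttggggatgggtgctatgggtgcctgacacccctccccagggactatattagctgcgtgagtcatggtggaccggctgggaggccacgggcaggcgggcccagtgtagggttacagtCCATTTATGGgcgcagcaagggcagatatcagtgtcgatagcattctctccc
A CArG box on either strand was found in 1.5% of the 33469 promoters, and 2 of the 72 named genes with a promoter hold one, Ldb3 and Prune2.

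Pygm, the muscle form of glycogen phosphorylase, was at 26.8, 31.8, 63.6 and 71.4 CPM with GQ-16 and 143, 229, 128 and 177 CPM with PAN, a log2 change of -1.897 (SE 0.45, unadjusted p 0.0008, adjusted p 0.358 by limma). The groups did not overlap, and GQ-16 rats 1 and 2 had less than GQ-16 rats 3 and 4. Eno3, muscle enolase, was lower in all 4 GQ-16 rats at 13.1, 11.8, 13.2 and 13.98 CPM against 44.9, 30.4, 14.2 and 19.5 CPM, a log2 change of -0.93 (SE 0.31). Synpo2l, a sarcomeric relative of synaptopodin, and Myom2, an M-band protein, did not separate the groups. Synpo2l was at 24.3, 31.6, 74.8 and 255 CPM with GQ-16 and 81.1, 139.6, 154 and 137 CPM with PAN, and GQ-16 rat 4 had the highest level of the 8. Myom2 was at 28.9, 21, 55.6 and 141 CPM and 99.1, 158, 86.5 and 133 CPM, with GQ-16 rat 4 within the PAN range, and the log2 changes were -1.01 (95% interval -2.32 to 0.30) and -1.31 (95% interval -3.01 to 0.39).

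Adhesion genes differed by small amounts. Of 27 integrin and focal adhesion genes 23 were lower (45.6% of all genes were), with a median of -0.10. At an unadjusted p under 0.05, 3 were lower (background 3.81%), and 2 were lower without overlap (background 1.56%). The count at an unadjusted p under 0.05 was 2 to 6 with each rat left out, with 6 without GQ-16 rat 3. Vcl, vinculin, which couples integrins to actin, was at 134, 179, 208 and 173 CPM with GQ-16 and 270.1, 274, 231 and 225 CPM with PAN, without overlap, a log2 change of -0.54 (SE 0.15, unadjusted p 0.00208, adjusted p 0.496 by limma). Itga1, the collagen-binding integrin α1, was at -0.59 (SE 0.18) with PAN rat 4 the highest, and Flna, the actin cross-linker filamin A, was at -0.45 (SE 0.18), both with overlapping rats.

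Cell cycle genes had a lower median (-0.42), with 29 of 32 lower (45.6% of all genes were) and 7 lower at an unadjusted p under 0.05 (background 3.81%). GQ-16 rat 4 lay far below the other 7 rats. The rats' medians over the list were -0.32, -0.06, 0.01 and -1.66 with GQ-16 and 0.02, 0.19, -0.25 and -0.02 with PAN, and without GQ-16 rat 4 the median was -0.08 with 0 genes at an unadjusted p under 0.05. With each rat left out in turn, 0 to 14 genes of the list were lower at an unadjusted p under 0.05. With a library number of 25 or higher as a covariate 19 were, against 4.75% of all genes in that fit. Mki67, the proliferation antigen, was at 36.3, 51.7, 69.9 and 8.79 CPM with GQ-16 and 77.5, 101, 53.9 and 67.95 CPM with PAN, a log2 change of -1.16 (SE 0.47). GQ-16 rat 4 was the lowest of the 8 for Mki67, for the centromere genes Cenpe (-0.77) and Cenpf (-1.09) and for the spindle checkpoint kinase Bub1 (-0.95), and GQ-16 rat 3 lay within the PAN range for each. With each rat left out, the changes were -1.52 to -0.53 for Mki67 and -0.98 to -0.39 for Cenpe. They were -1.38 to -0.47 for Cenpf and -1.325 to -0.43 for Bub1.

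Leukocyte and macrophage genes had a median of -0.46, with 19 of 20 lower (45.6% of all genes were) and 3 at an unadjusted p under 0.05 (background 3.81%). These 3 were the receptor Csf1r (-0.70), the oxidase subunit Cybb (-0.76) and the complement component C1qc (-0.78). Csf1r was at 37.7, 67.8, 48.6 and 36.7 CPM with GQ-16 and 149.5, 72.03, 57.9 and 51.1 CPM with PAN, so PAN rat 1 was far above all others and the rest overlapped. Mrc1, the mannose receptor, was at 10.5, 17.2, 15.98 and 17.5 CPM with GQ-16 and 57.2, 23.96, 13.7 and 20.8 CPM with PAN, a log2 change of -0.74 (SE 0.35). Without PAN rat 1 the changes were -0.37 for Csf1r, -0.39 for Cybb, -0.39 for C1qc and -0.34 for Mrc1. Leaving out each rat in turn, the median of the list was -0.67 to -0.20 and 0 to 9 genes were lower at an unadjusted p under 0.05. There were 0 without PAN rat 1 (median -0.20) or GQ-16 rat 1, 7 without PAN rat 3, 8 without PAN rat 4 and 9 without GQ-16 rat 2. With the proximal tubule score as a covariate 14 were lower (734 of all 13222 genes in that fit). With a library number of 25 or higher as a covariate 0 were (628 of all genes in that fit). The summed level of the list was 722.5 to 1285 CPM with GQ-16, 933 to 2180 CPM with PAN and 807 to 1087 CPM in healthy rats, and its part in the matrix and complement values was not tested.

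MHC and interferon genes were lower in mean for 32 of 33 (45.6% of all genes were), with a median of -0.37. At an unadjusted p under 0.05, 2 of 33 were lower, near the background of 3.81%. Leaving out each rat gave 0 to 5 such genes, with 0 without PAN rat 1, PAN rat 2 or GQ-16 rat 3 and 5 without PAN rat 4. A fit of only the 8 libraries gave 7, where 398 of all 13222 genes were lower. Mx1, an interferon-induced antiviral GTPase, did not overlap, at 19.6, 15.98, 16.04 and 16.9 CPM with GQ-16 and 41.2, 51.7, 24 and 24.3 CPM with PAN, a log2 change of -0.97 (SE 0.40, adjusted p 0.728 by limma). Complement and coagulation genes had a median of -0.28 over 30 genes, with 6 lower and 1 higher at an unadjusted p under 0.05 (background 3.81% and 2.67%). With each rat left out 2 to 10 were lower. There were 2 lower and 2 higher without PAN rat 1 or without GQ-16 rat 1, and 10 lower and 2 higher without PAN rat 3. C2, a protease of the classical pathway, had a log2 change of -1.33 (SE 0.42), with PAN rat 4 overlapping GQ-16 rat 2. Lgals3, the lectin galectin-3, was at 5.23, 8.76, 7.53 and 6.67 CPM with GQ-16 and 51.02, 9.99, 9.12 and 9.201 CPM with PAN, without overlap and with PAN rat 1 far above the rest, a log2 change of -1.05 that was -0.45 without PAN rat 1.

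**Figure D4:**
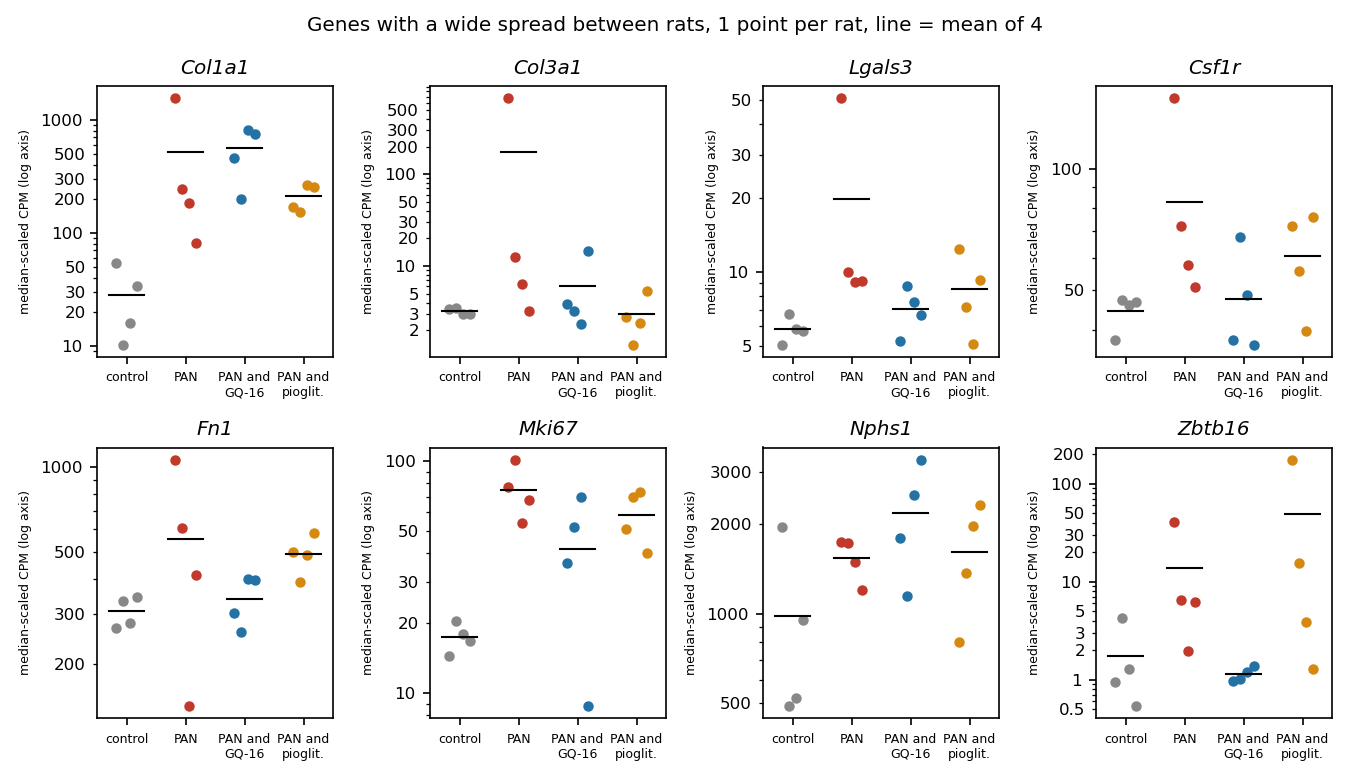
Level of 8 genes in each rat (vertical axes, median-scaled CPM on log scales) in the 4 groups, with a black line at the group mean. PAN rat 1 is the highest PAN point for Col1a1, Col3a1, Lgals3, Csf1r, Fn1 and Zbtb16, and GQ-16 rat 4 is the lowest point for Mki67.

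Podocyte genes showed no gene at an unadjusted p under 0.05 among 30, with a median of 0.14 and 20 higher. Rats of the GQ-16 group spread widely, with medians of -0.14, -0.61, 0.44 and 0.69, while the PAN rats were at 0.18, 0.01, -0.05 and -0.21. Without GQ-16 rat 2 the median was 0.35 with 1 gene higher at an unadjusted p under 0.05, and without GQ-16 rat 4 it was -0.05. Nphs1, nephrin of the slit diaphragm, was at 1801, 1145, 2506 and 3289 CPM with GQ-16 and 1739, 1725, 1489.9 and 1203 CPM with PAN, a log2 change of 0.42 (95% interval -0.53 to 1.36). GQ-16 rat 2 was the lowest of the 8 and GQ-16 rat 4 the highest.

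Other podocyte genes that were followed whatever their values had intervals that included 0. These were the transcription factor Wt1 at 0.22 (-0.70 to 1.15), the surface sialoprotein Podxl at 0.14 (-0.36 to 0.64), the actin organiser Synpo at 0.14 (-1.04 to 1.33) and the filament protein Vim at -0.02 (-0.66 to 0.62). Slit and foot process genes, 25 in number, had a median of 0.04, and -0.19 to 0.20 with each rat left out. Among them Trpc6, a calcium channel of the slit, was the one with an unadjusted p under 0.05. Trpc6 was at 2.23, 4.09, 4.9 and 4.77 CPM with GQ-16 and 9.03, 8.02, 4.88 and 6.76 CPM with PAN, a log2 change of -0.87 (SE 0.25, unadjusted p 0.00325, adjusted p 0.535 by limma), and PAN rat 3 overlapped with GQ-16 rat 3. With the mitochondrial share as a covariate the podocyte median was 0.47 and 18 of 30 genes were higher at an unadjusted p under 0.05. The slit and foot process median was then 0.30 with 9 of 25 genes higher. Over all 13222 genes, 775 were higher in that fit, against 353 in the main fit. The mitochondrial share was highest in the rat with the lowest podocyte genes.

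Endothelial genes had a median of 0.09 over 19 genes, and from -0.07 to 0.21 with each rat left out. Plvap, the diaphragm protein of fenestrated endothelium, was the one with an unadjusted p under 0.05, at 115, 153, 144 and 108 CPM with GQ-16 and 226, 216, 150.1 and 179 CPM with PAN, a log2 change of -0.56 (SE 0.16, unadjusted p 0.00258, adjusted p 0.52 by limma), with overlap between GQ-16 rat 2 and PAN rat 3. Plat, the tissue plasminogen activator, was at 0.45 (SE 0.21, unadjusted p 0.0546). Vegfa, the podocyte growth factor that maintains this endothelium, was higher in all 4 GQ-16 rats, at 2045, 1742, 2146 and 2430.1 CPM against 1412, 1547, 1499 and 1098 CPM, a log2 change of 0.59 (SE 0.32, unadjusted p 0.0867, adjusted p 0.811 by limma), and is named after its values were seen. Angpt2, a vessel-destabilising ligand, was lower in all 4, at 14.7, 27.2, 35.3 and 29.9 CPM against 45.9, 49.5, 39.1 and 38.1 CPM, a log2 change of -0.75 (SE 0.26). Dll4, the endothelial Notch ligand, was at 0.64 (SE 0.24) with overlap.

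Krt7, a keratin of simple epithelia on the parietal list, was at 107, 84.3, 100.3 and 105 CPM with GQ-16 and 87.8, 54.2, 49.2 and 48.5 CPM with PAN, a log2 change of 0.77 (SE 0.18, unadjusted p 0.000762, adjusted p 0.358 by limma). One rat overlapped, PAN rat 1, and the other PAN rats were well below. The parietal epithelial list as a whole had a median of -0.09 over 11 genes, and from -0.27 to 0.11 with each rat left out. Tubule genes overlapped between the groups, with 0 of 22 proximal and 0 of 18 distal genes at an unadjusted p under 0.05 and medians of 0.10 and 0.32. The proximal median was -0.21 with 21 of 22 genes lower without PAN rat 1, -0.07 without GQ-16 rat 1, 0.45 without PAN rat 4, and -0.36 with 21 lower under a library number of 25 or higher as a covariate. Of the distal genes 4 were higher at an unadjusted p under 0.05 without PAN rat 2 or without GQ-16 rat 4. Umod, the secreted protein of the thick ascending limb, was at 593, 612, 283 and 341 CPM and 178, 498, 269 and 278 CPM, and Calb1, a calcium buffer of the distal tubule, was at 104, 94.7, 41.2 and 18.9 CPM and 9.68, 50.1, 31.9 and 23.6 CPM. Both overlapped, at log2 changes of 0.60 and 1.098, which were 0.37 to 0.87 and 0.65 to 1.59 with each rat left out. The distal list median was 0.13 to 0.54 with each rat left out. Gatm, a creatine synthesis enzyme of the proximal tubule, was at 0.49 (95% interval -0.71 to 1.697). Lcn2, the tubule injury protein NGAL, was at 0.62 (95% interval -0.74 to 1.98), and at 0.31 to 1.28 with each rat left out.

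Targets of PPAR receptors had a median close to that of all genes. The median over 33 such genes was -0.02, with 18 lower and 15 higher, 3 lower and 0 higher at an unadjusted p under 0.05 (background 3.81% and 2.67%), and 0 past the adjusted threshold. Without PAN rat 4 the median was 0.08, with 1 lower and 3 higher. The PPAR response element AGGTCANAGGTCA, searched on both strands, was in 0 of the 72 named genes' promoters and in 0.0508% of all promoters, 17 in number. Only this exact pattern within the 250 bases before the start was searched. Matches are so rare that almost any 72 promoters would hold 0, so the count says nothing about PPAR binding. Cpt1b, the muscle enzyme that admits fatty acids to mitochondria, was the lowest of the list, at 7.49, 10.2, 12.7 and 16.8 CPM with GQ-16 and 28.5, 22.8, 21.1 and 18.6 CPM with PAN, without overlap. Its log2 change was -0.99 (SE 0.26, unadjusted p 0.00155, adjusted p 0.448 by limma), and Cpt1b had risen by 2.21 with injury (adjusted p 0.000388 by limma).

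The other PPAR targets with an unadjusted p under 0.05 were the cholesterol exporter Abca1 at -0.83 (SE 0.33) and the fatty acid hydroxylase Cyp4a2 at -0.89 (SE 0.37), both with overlap. Pdk4, the kinase that turns off pyruvate oxidation and a common PPAR readout, was at 4.97, 5.42, 6.57 and 7.45 CPM with GQ-16 and 31.2, 5.62, 5.77 and 7.31 CPM with PAN, a log2 change of -0.62 (95% interval -1.59 to 0.35). Without PAN rat 1 the change of Pdk4 was -0.04. PAN rat 1 was far above the others for Pdk4, and the remaining PAN rats lay within the GQ-16 range. Cpt1c, a neuronal relative of Cpt1b, was lower in all 4 GQ-16 rats, at 4.18, 3.65, 3.75 and 5.77 CPM against 10.05, 8.07, 7.97 and 6.21 CPM, a log2 change of -0.90 (SE 0.19, unadjusted p 0.000244, adjusted p 0.317 by limma). Nuclear receptors and their coregulators, 26 genes, had 0 at an unadjusted p under 0.05 and a median of -0.07.

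Zbtb16, a transcription factor induced by glucocorticoids, had a large difference and a wide spread between PAN rats. It was at 0.972, 1.01, 1.18 and 1.37 CPM with GQ-16 and 40.3, 6.42, 1.96 and 6.14 CPM with PAN, so the GQ-16 rats lay close together below every PAN rat. The log2 change was -2.73 (SE 1.21, unadjusted p 0.0396, adjusted p 0.75 by limma), ranging from -3.38 to -1.92 with each rat left out. The glucocorticoid list had a median of -0.13 over 15 genes, and Zbtb16 was its one gene at an unadjusted p under 0.05. The list had 0 such genes in 5 of the 8 fits with a rat left out, under voom and under log2(CPM + 1). With a library number of 25 or higher or the mitochondrial share as a covariate it had 2 lower. In those fits 628 and 618 of all 13222 genes were lower.

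Genes of other functions were also lower in every GQ-16 rat. Prune2 (ENSRNOG00000015088), a neuronal protein of the neuronal-type list, was at 1.29, 1.36, 1.63 and 2.43 CPM with GQ-16 and 4.15, 4.82, 4.15 and 4.86 CPM with PAN, a log2 change of -1.46 (SE 0.24, unadjusted p 2.05e-05, adjusted p 0.115 by limma). Unlike Cdkn1a it had not passed the threshold with injury, at 0.40 over control (adjusted p 0.277 by limma). Sstr3, a somatostatin receptor, was at 4.07, 5.33, 6.18 and 9.29 CPM and 18.1, 17.99, 21.9 and 21.4 CPM, a log2 change of -1.73 (SE 0.33, unadjusted p 9.86e-05, adjusted p 0.217 by limma). Ptgs1, the prostaglandin synthase COX-1, was at 17, 22.2, 18.7 and 18.7 CPM and 29.3, 32.6, 32.7 and 30.5 CPM, a log2 change of -0.71 (SE 0.15, unadjusted p 0.000279, adjusted p 0.317 by limma), with both groups tight. Adap2, a regulator of Arf GTPases, and Hrct1, a small histidine-rich protein, were at -0.88 (SE 0.19) and -0.93 (SE 0.20).

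The genes higher in every GQ-16 rat with the smallest p-values included Prrt2, Tac4, Egfl6 and Cfap100. Prrt2, a presynaptic membrane protein, was at 26.5, 16.6, 20.8 and 16.5 CPM with GQ-16 and 6.57, 7.06, 8.91 and 4.86 CPM with PAN, a log2 change of 1.56 (SE 0.37, unadjusted p 0.000839, adjusted p 0.358 by limma). All GQ-16 rats were above all PAN rats, and healthy rats were higher still at 43.2 ± 6.61 CPM (SD, n = 4), and Prrt2 fell with injury (-2.68, adjusted p 0.00144 by limma). Tac4, the tachykinin precursor of hemokinin, was at 9.91, 15.1, 7.33 and 19.9 CPM and 4.01, 5.52, 6.19 and 3.27 CPM, a log2 change of 1.401 (SE 0.33, unadjusted p 0.000654, adjusted p 0.358 by limma), and had likewise fallen with injury (-1.72, adjusted p 0.00586 by limma). Egfl6, a secreted matrix protein with EGF repeats, was at 9.17, 9.91, 14.4 and 9.01 CPM and 2.48, 4.61, 4.21 and 3.45 CPM, a log2 change of 1.54 (SE 0.38, unadjusted p 0.00122, adjusted p 0.43 by limma). Cfap100, a protein of motile cilia, was at 13.01, 7.705, 5.73 and 7.11 CPM and 3.83, 2.69, 4.26 and 2.72 CPM, a log2 change of 1.27 (SE 0.30).

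Also higher in every GQ-16 rat was Fis1, a mitochondrial fission receptor, at 118, 116, 98.4 and 114 CPM with GQ-16 and 89.3, 87.7, 91.1 and 89.6 CPM with PAN, a log2 change of 0.31 (SE 0.08), with the PAN rats nearly equal. Sertad1, a regulator of CDK4 and E2F, was at 0.34 (SE 0.09), and Tdrp, a testis-enriched nuclear protein, was at 0.59 (SE 0.16). Fbxo8, an F-box protein, Bet1, a SNARE of Golgi transport, and Aarsd1, an alanyl-tRNA editing protein, were at 0.24, 0.26 and 0.24.

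Levels in the other groups are set beside these. The difference of GQ-16 from PAN and that of PAN from control share the PAN rats, so an unusual PAN rat moves both in opposite senses, and the 2 are given as values. Group means for Cdkn1a were 13.4 CPM in control, 44.5 with PAN, 17.9 with PAN and GQ-16 and 37.98 with PAN and pioglitazone. For Ldb3 they were 2.01, 28.2, 8.12 and 11.7 CPM, and for Adamts14 2.097, 32.6, 8.59 and 10.8 CPM. The pioglitazone mean thus lay near the PAN mean for Cdkn1a and near the GQ-16 mean for Ldb3 and Adamts14.

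The direct test of GQ-16 against pioglitazone, whose difference uses no PAN rat although all 16 libraries share the estimate of spread, gave 0 genes at a limma adjusted p under 0.05 (0 of 13222, 0%), 946 at an unadjusted p under 0.05 (7.15%) and a smallest adjusted p of 0.611. Its log2 difference was -1.09 for Cdkn1a, -1.07 for Prune2, -0.73 for Ptgs1, -0.61 for Ldb3, 0.08 for Sstr3 and -3.26 for Zbtb16. The 2 drugs were therefore not shown to differ on any gene, and the labels give no dose by which to match them.

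Because library numbers and groups were unequal, each difference was also read within the 2 ranges of numbers, with no test, since each range holds a single rat of 1 group. Among libraries numbered 15 or lower (3 GQ-16 rats and PAN rat 4) Cdkn1a differed by -1.02, and among those numbered 25 or higher (GQ-16 rat 4 and 3 PAN rats) by -1.52. Adamts14 differed by -1.72 and -1.81, Ldb3 by -2.22 and -1.08, Tagln by -1.67 and -1.64, and Prrt2 by 2.11 and 1.15. The groups did not overlap for these genes or for Cdkn1a, so the same sign in both ranges was fixed by construction. Only the sizes can differ between the ranges. Synpo2l had opposite signs, at -1.83 and 1.08. The contractile mesangial list had medians of -0.46 and -0.50, and the interstitial matrix list -0.18 and -0.72. Leukocyte genes were at 0.15 and -0.88, cell cycle genes at -0.10 and -1.68, mitochondrially encoded genes at 0.90 and -0.29, and distal tubule genes at 0.78 and -0.26. Sarcomere genes were at -0.42 and 0.28. Of the 36 lists, 15 kept the sign of their pooled median in both ranges of numbers. Of the 98 named genes, 92 kept the sign of the pooled change among the lower numbers and 93 among the higher. Their choice by the pooled values favours this, and it is certain for genes without overlap.

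**Figure D5:**
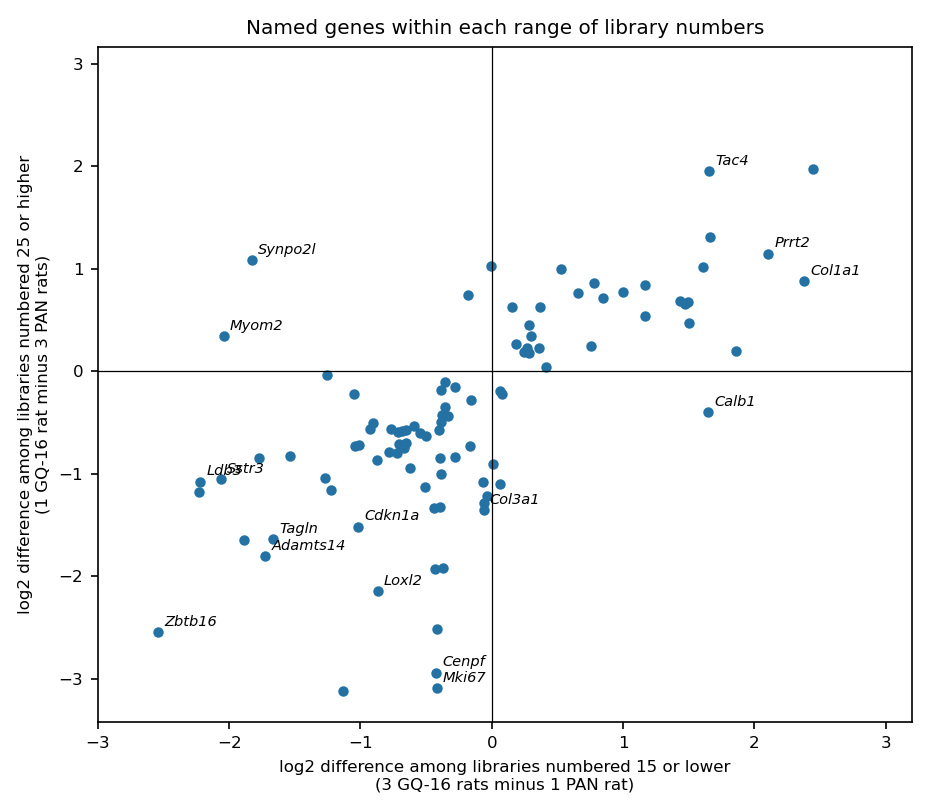
Log2 difference of GQ-16 from PAN for each of the 98 named genes among libraries numbered 15 or lower (horizontal axis) and among those numbered 25 or higher (vertical axis). Cdkn1a lies at -1.02 and -1.52 and Prrt2 at 2.11 and 1.15, while Synpo2l and Myom2 lie below 0 on the first axis and above 0 on the second. Genes whose groups did not overlap, such as Cdkn1a and Prrt2, have the same sign on both axes by construction.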

How the data were processed

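The deposited table holds log2 CPM (read counts normalised for library size, on a log2 scale). Per the submitters' processing notes, reads were aligned with HISAT2, counted with featureCounts of the Subread package and processed with limma on build Rnor_6.0. The deposited values show that 0.5 was added to the counts and 1 to the totals before the authors took log2, and whole reads (within 0.05 read) were recovered for 100% of values under 500 reads. The table holds no gene under 2 CPM in more than 8 libraries. Each library was shifted to a common median (log2 4.71). Group means of all 16 libraries were fitted with limma 3.58.1 (trended variance) in R 4.3.3 with Benjamini-Hochberg adjustment over 13222 genes, and figures and lists were made in Python 3.11.15. The fit was tested on simulated data. A floor of 3 reads equals 0.157 to 0.225 CPM in the 8 libraries, and intervals cover the spread between samples.

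The comparison, its 36 gene lists (830 of 964 symbols are in the table) and the tests were chosen with earlier results of these data known. Genes are named if they have one of the 10 smallest p in a direction among genes whose mean was 5 CPM or more and whose groups did not overlap, one of the 4 smallest p in a list, or belong to 21 genes followed whatever their values. The exceptions are Vegfa, Pdgfrb, Vcan, Hba-a1, Hbb, Alas2, Col8a1, Adam12, Kcns1 and Semg1, which were added after their values were seen. Rats are numbered in accession order. Promoters are from RefSeq (GRCr8), not the build of the counts, so no gene coordinates are given beyond theirs. Pecam1, Cldn5 and 3 genes that the rule names are not reported here. Alternatives were other scalings and offsets, voom, a filter on low values, only the 8 libraries, covariates, list means, and leaving out each rat.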

Additional observations from a re-analysis of the deposited data

Results flagged for a closer look

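In 274 groups of 4 rats (each named gene, each list and 3 library measures, in GQ-16 and in PAN) a single rat lay far from the other 3 in 12, where chance gives about 13.7. PAN rat 1 did so for Lgals3 (51.0 CPM, others 9.12 to 9.99), Pdk4 (31.2 CPM, others 5.62 to 7.31) and the mitochondrially encoded list (-0.67 from the PAN mean, others 0.12 to 0.27). PAN rat 4 did so for Itga1 (102.9 CPM, others 67.6 to 70.7), Sqstm1 (376.0 CPM, others 349.9 to 353.7), the immediate early list (-0.21, others 0.07 to 0.09), the Nrf2 list (0.26, others -0.09 to -0.05) and the angiogenic list (-0.14, others 0.04 to 0.06). PAN rat 3 stood apart for Fbxo8 (23.6 CPM, others 22.3 to 22.5), at a very narrow group range. GQ-16 rat 3 stood apart for Tp53inp1 (9.19 CPM, others 6.91 to 7.17) and the basement membrane list (0.11, others -0.26 to -0.21), and GQ-16 rat 1 for Pdgfrb (233.2 CPM, others 325.5 to 333.4).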

How the results depend on the processing

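No paired analysis was possible because the labels give no replicate numbers, and numbers in accession order pair no rats. Over 19 fitted alternatives 93 of 98 named genes kept their sign, and none was called with a rat left out. Most were chosen by their values in these same rats, and a gene without overlap cannot turn sign when a rat is left out. The count of kept signs was thus largely set by the choice of genes. Leaving out a rat moved the change of 35 by over 1.5 times, 23 of them without PAN rat 1 and 12 without GQ-16 rat 4. Without equal medians 2 genes passed (Cdkn1a and Prune2), 1019 were lower and 41 higher at an unadjusted p under 0.05, and 459 and 19 did not overlap. This moved the median gene to -0.12. A mean of at least 10 CPM gave 297 lower and 134 lower without overlap, over fewer genes. Genes higher at an unadjusted p under 0.05 numbered 701 with library number, 591 with the proximal tubule score and 775 with the mitochondrial share as covariate (the cause was not tested). With each rat left out, 0 genes passed, against PAN as against pioglitazone, 296 to 694 were lower and 267 to 432 higher at an unadjusted p under 0.05, and 257 to 526 lower and 329 to 542 higher did not overlap. Counts of lower genes were lowest without GQ-16 rat 1 (296, with 308 higher) and PAN rat 1 (326, with 350 higher). The excess of lower over higher genes was therefore not kept in every alternative. Counts without overlap rise with fewer rats by construction and have no value under covariates, voom or the 8-library fit. Signs turned for Vim (0.29 with library number, 0.31 with mitochondrial share, and -0.29 to 0.19 with a rat left out), Gatm (-0.17 with library number, and -0.19 to 0.88), Fn1 (-0.95 to 0.0242 with a rat left out), Synpo (-0.17 to 0.51) and Podxl (-0.0433 to 0.30). Medians of 16 of 36 lists took both signs with a rat left out. Of 720 list medians, 17 in 11 lists moved by more than the spread between rats.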

Other observations

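Globin genes of red blood cells were higher in mean with GQ-16 and are named after their values were seen. Hbb, a β-globin, was at 1055, 999, 1165 and 669 CPM with GQ-16 and 139.9, 664, 819.8 and 386 CPM with PAN, a log2 change of 1.201 (SE 0.48, unadjusted p 0.0237, adjusted p 0.714 by limma). PAN rat 1 was the lowest of the 8 and PAN rat 3 lay within the GQ-16 range. Hba-a1, an α-globin, was at 1.17 (SE 0.48), and Alas2, the first heme synthesis enzyme of red cells, was at 29.1, 28.3, 44.5 and 21.1 CPM against 4.06, 20.3, 28.1 and 11.8 CPM, a log2 change of 1.21 (SE 0.50). Without PAN rat 1 the changes were 0.68 for Hbb, 0.64 for Hba-a1 and 0.65 for Alas2. Globin genes are near-identical copies, so reads may be split between them and their levels are uncertain.

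More matrix genes outside the lists were lower in every GQ-16 rat. Col8a1, a short-chain collagen of vessel walls, was at 3.76, 10.9, 15.3 and 10.5 CPM with GQ-16 and 53.7, 34.4, 18.9 and 31.6 CPM with PAN, a log2 change of -1.85 (SE 0.44, unadjusted p 0.000793, adjusted p 0.358 by limma). Adam12, a membrane metalloprotease of mesenchymal cells, was at 2.18, 6.12, 9.38 and 1.65 CPM and 14.04, 21.6, 9.69 and 10.97 CPM, a log2 change of -1.82 (SE 0.47, unadjusted p 0.00151, adjusted p 0.448 by limma), and the highest GQ-16 rat nearly met the lowest PAN rat. Among low genes that were higher in every GQ-16 rat, Kcns1, a modifier subunit of potassium channels, was at 6.33, 8.67, 3.88 and 5.89 CPM and 0.348, 0.7195, 2.12 and 0.5197 CPM (log2 3.04, SE 0.97), and Semg1, semenogelin, was at 9.38, 11.5, 6.37 and 5.05 CPM and 0.255, 2.32, 3.58 and 1.62 CPM (log2 2.495, SE 0.69).

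The proteasome list had a median of 0.05 over 28 genes with 26 higher, and its subunit gene Psmb3 was higher in every GQ-16 rat at 0.21 (SE 0.08). Cholesterol synthesis had a median of 0.07 over 25 genes, with 2 higher at an unadjusted p under 0.05 (background 2.67%, 0 to 4 with each rat left out). These were the synthase genes Fdft1 at 0.35 and Fdps at 0.23. Lysosome and autophagy genes had a median of -0.11 over 34 genes, with 5 lower and 0 higher at an unadjusted p under 0.05 (background 3.81% and 2.67%). There were 2 to 6 lower with each rat left out, and the median was -0.01 without PAN rat 4. The lower genes included the autophagy receptor Sqstm1 at -0.20 and the cholesterol carrier Npc2 at -0.29, both without overlap. Nuclear respiratory chain genes (39, median 0.13), ribosomal proteins (40, 0.06) and ER stress genes (24, -0.01) each had 0 at an unadjusted p under 0.05. With each rat left out, the respiratory chain list had 0 to 5 higher, with 5 and a median of 0.26 without PAN rat 4, the ribosomal list 0 to 2 higher and the ER stress list 0 to 1 higher. The mitochondrially encoded genes had a median of 0.79, with GQ-16 rats at 1.23, 2.22, 0.03 and -0.37, so GQ-16 rats 1 and 2 were high and rats 3 and 4 were near the PAN rats. This median was 0.31 without GQ-16 rat 2 and 0.10 after quantile normalization.

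The other lists, each against a background of 3.81% lower and 2.67% higher at an unadjusted p under 0.05, were counted as follows. Glycolysis and glycogen genes had 2 lower of 29 (2 to 3 with each rat left out), Nrf2 antioxidant genes 1 higher of 22 (0 to 1), and immediate early genes 1 lower of 20 (0 to 1). Chemokine and NF-κB genes had 2 lower of 22 (1 to 6, with 6 and a median of -0.25 without PAN rat 4), and Wnt and Notch genes 2 lower (0 to 3) and 1 higher (0 to 2) of 32. Angiogenic and growth factors had 3 lower of 36 (0 to 4), neuronal-type genes 3 lower (2 to 4) and 1 higher (1 to 2) of 18, and intermediate filament and injury genes 2 lower (1 to 4) and 1 higher of 18.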
